A study of Mus musculus with 4 samples.

Results

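Mouse embryos without Ddx6 were collected at embryonic day 8.5 (E8.5) and set against wild-type embryos a day younger, at E7.5, to ask gene by gene what the knockout (KO) embryos had gained and what they lacked. The comparison takes 3 of the 4 mRNA-seq libraries of the series: E8.5 Ddx6 KO replicates 1 and 2 (KO1 and KO2) and the lone E7.5 wild-type (WT) library. The remaining library, E8.5 WT, is quoted beside them as a landmark of normal development. It also entered the normalisation, the filter on low counts and the fits of the tests. All were made from whole ICR embryos with a stranded mRNA kit. The KO embryos were Ddx6 -/-, homozygous for a deletion allele derived from a floxed exon 5 line crossed to CAG-Cre, a Cre driver that acts in all tissues, and came from heterozygous intercrosses. Each KO library was a pool: KO1 combined an embryo that had not yet formed head folds with another that had, whereas the embryos of KO2 were all at the stage before head folds. The number of embryos in each wild-type library is not given in the sources used here, and the E8.5 embryos were genotyped on extraembryonic tissue or yolk sac. The labels do not say that the KO libraries are separate litters, so the spread between them can include stage, sex and dissection as well as chance.

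DDX6 is a DEAD-box RNA helicase of processing bodies (P-bodies), the cytoplasmic granules in which translationally silent mRNA gathers. It binds the CCR4-NOT deadenylase complex, decapping activators and the translational repressor 4E-T, and so links microRNA (miRNA)-bound mRNA to silencing and decay. Between E7.5 and E8.5 the mouse embryo passes from gastrulation to early organogenesis. Epiblast cells leave pluripotency through the primitive streak, mesoderm forms the heart, vessels, first blood and somites, Hox genes are switched on in order along the body axis, and the neural plate is patterned, while extraembryonic ectoderm and visceral endoderm serve as signalling and nutritive tissues outside the embryo proper.

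The libraries held 12095555 (E7.5 WT), 8198402 (KO1), 12008252 (KO2) and 12562640 (E8.5 WT) reads assigned to genes, and 14393 genes with at least 10 reads in at least 1 library were tested. A change is the difference in log2 CPM (read counts scaled to library size by TMM, with a prior count of 2) between a KO library and E7.5 WT, so a value of 1 is 2-fold, and the threshold for higher or lower is a change beyond 1 or below -1. In KO1, 1919 genes (13.3%) were higher and 1057 (7.34%) lower. For KO2 the counts were 1573 (10.9%) above and 578 (4.02%) below. Both KO libraries shared 1011 higher genes (7.02%) and 384 lower genes (2.67%), and 85 genes lay past the threshold on opposite sides. The shares over all genes are the background for the list counts below, and no list was tested against them. Taken over the tested genes, the median change was 0.03 (KO1), 0.07 (KO2) and -0.02 (E8.5 WT).

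These counts carry no replicate test, because E7.5 WT is a single library. The edgeR quasi-likelihood test, in which the spread comes from the KO pair alone, called 0 genes (0% of those tested) at an adjusted p under 0.05, with a smallest adjusted p of 0.120. It left 3538 genes at an unadjusted p under 0.05, of which 2030 were higher and 1508 lower in KO. Without the filter on low counts the same test called 463 genes higher and 265 lower, and the DESeq2 Wald test on the filtered genes called 420 higher and 308 lower. The number of calls thus rested on the filter and the tool, so each gene is given below by its value in every library. Adjusted p-values below are DESeq2's unless edgeR is named. DESeq2 values are printed for some genes only, all of them under 0.05, and edgeR called none of these genes. A gene printed without one may lie on either side of 0.05 or have none.

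**Figure D1:**
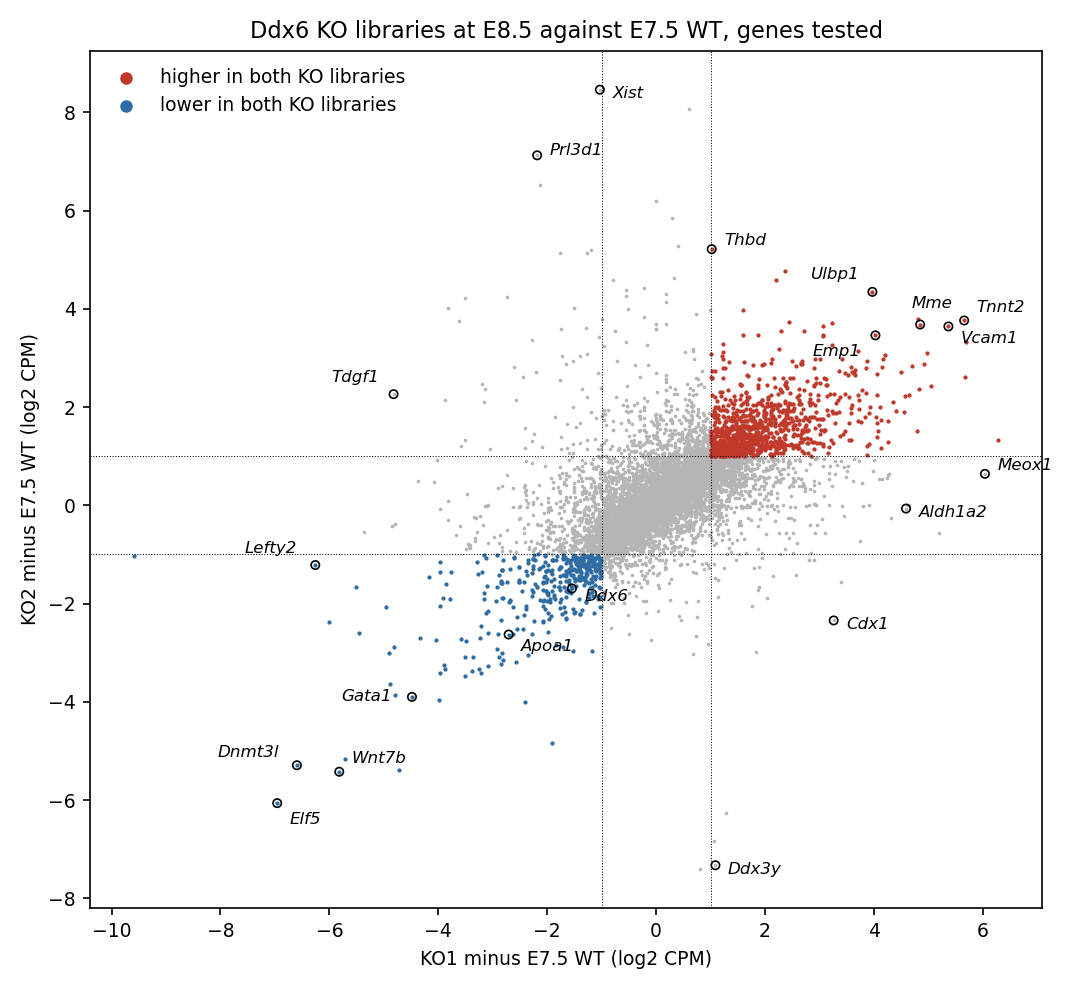
Change of each of the 14393 genes tested against E7.5 WT in KO1 (horizontal axis) and KO2 (vertical axis), both in log2 CPM, with dotted lines at the threshold of 1. Both axes share the E7.5 WT library, so the axes are not independent. The 1011 genes in red and 384 in blue lie past the threshold in both KO libraries, and Xist, Prl3d1 and Ddx3y lie far off the diagonal.

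Ddx6 itself (chr9:44604892-44640731, plus strand, mm10) had 2943 reads in E7.5 WT, 706 in KO1, 929 in KO2 and 5715 in E8.5 WT. It was therefore 2.92-fold and 3.24-fold lower in the KO libraries (mean log2 change -1.62 ± 0.10, SD, n = 2), with an edgeR p of 1.76e-04 (adjusted p = 0.120) and a DESeq2 adjusted p of 2.23e-10. Reads remained over the gene in both KO libraries, and a count per gene cannot tell the exons apart.

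The libraries also differed in ways that the genotype label does not name. KO2 held 17340 reads of Xist, the RNA that coats the inactive X chromosome of female cells, against 15 to 46 in the other libraries, and 0 reads of Eif2s3y, Ddx3y, Kdm5d and Uty on the Y chromosome, which had 162 to 744 reads in the others. KO2 also held transcripts of tissues next to the embryo. The 17 trophoblast giant cell and ectoplacental genes summed to 11922 reads in KO2, led by Prl3d1 (placental lactogen, 4156 reads) and Prl7a1 (3193 reads), against 283 in E7.5 WT, 18 in KO1 and 24 in E8.5 WT. The 11 genes of uterine natural killer cells (granzymes and perforin) summed to 286 reads in KO2 against 40, 30 and 4. Maternal decidua genes summed to 2737 reads in E7.5 WT and 3095 in KO2 but 682 in KO1, most of the difference being Prl8a2 (1318, 1433 and 64 reads). Of 10 adult blood genes, 9 were at 0 in E7.5 WT and KO1 and 8 in KO2. The part of these cells in the results below was not tested, and values of both KO libraries are kept apart for that reason.

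Several heart muscle genes were higher in both KO libraries. Of 18 genes of the sarcomere and contraction tested, 7 were higher in both KO libraries and none lower in both, and the list's median change was 1.14 in KO1 and 0.85 in KO2, against 0.03 and 0.07 for all genes. Tnnt2 (cardiac troponin T, chr1:135836354-135852260) had 3 reads in E7.5 WT, 180 in KO1 and 69 in KO2 (changes 5.66 and 3.76, adjusted p = 1.7e-04). Ttn, the giant spring protein of the sarcomere, had 0, 34 and 8 reads (4.57 and 2.23, adjusted p = 0.041). Tnni1, the slow-type troponin I of embryonic heart, had 20, 253 and 76 reads (4.04 and 1.79, adjusted p = 0.012). All of these were higher in KO1 than in KO2. Ryr2 (the calcium release channel), Myl4 and Myh7 were also past the threshold in both, with Myh7 at 14, 64 and 36 reads. In E8.5 WT the list's median change was 2.73: Myh7 had 705 reads there, Ttn 235 and Actc1, cardiac actin, 799 against 26, 50 and 45 in E7.5 WT, KO1 and KO2, whereas Tnni1 had 168, below KO1. Tnnc1 (74, 29 and 41 reads) and Tnni3 (19, 6 and 16 reads) were not higher in either KO library. Popdc2, a cyclic AMP-binding membrane protein of heart muscle, had 3, 185 and 50 reads (5.70 and 3.32, adjusted p = 8.2e-04).

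Transcription factors of the heart divided into a KO1 group and a shared group. In KO1 8 of 12 were higher and in KO2 2 were, against 13.3% and 10.9% of all genes. Both of the KO2 genes, Mef2c and Tbx20, were shared. Mef2c had 34, 250 and 134 reads (3.31 and 1.88, adjusted p = 0.0056), and Tbx20 308, 918 and 883 reads (2.08 and 1.48, adjusted p = 1.7e-04). Tbx5, a factor of the inflow tract and left ventricle, had 5, 94 and 9 reads, Nkx2-5 6, 33 and 10 reads, and Gata5 48, 368 and 93 reads. These were high in KO1 and within the threshold in KO2. Irx4, a ventricular factor, was lower in both (156, 49 and 33 reads, changes of -1.13 and -2.20). Centred on genes of like length and GC content, as described below, Tbx20 stood at 1.34 and 0.81 and Irx4 at -0.88 and -2.05. Neither was then past the threshold in both KO libraries, whereas Gata5 was (3.54 and 1.04).

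Vessel genes were higher too, some of them in both libraries and others in KO1 alone. Of 16 hemangioblast and endothelial genes, 11 were higher in KO1, 5 in KO2 and 5 in both, against 13.3%, 10.9% and 7.02% of all genes. The list's medians were 1.53 and 0.33 (1.79 in E8.5 WT). Cdh5 (VE-cadherin, the adhesion molecule of endothelial junctions, chr8:104101625-104144511) had 98, 343 and 1202 reads (2.29 and 3.56, adjusted p = 1.9e-06). Pecam1 had 68, 128 and 302 reads and Esam 54, 85 and 223. These 3 junction genes were higher in KO2 than in KO1. KO2 is also the library with the trophoblast and uterine natural killer cell transcripts, and the part of adjoining tissue in these values was not tested. Thbd (thrombomodulin), which trophoblast and parietal endoderm also make, had 20, 30 and 838 reads. By contrast, Tek (the angiopoietin receptor) had 73, 590 and 112 reads, Tie1 34, 136 and 21, and Fli1, an ETS factor of vessel and blood progenitors, 86, 205 and 71. These were high in KO1 alone. Sox18 had 12, 114 and 34 reads and was higher in both, as were the Notch ligand Dll4 (6, 52 and 78 reads, 3.23 and 3.27, adjusted p = 0.030) and the Tek ligand Angpt1 (2, 89 and 34 reads, 4.97 and 3.10, adjusted p = 0.019). Etv2 and Tal1, which start the blood and vessel program, had 140, 104 and 135 reads and 411, 298 and 225 reads, and neither passed the threshold in either library.

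Several primitive red blood cell genes were below the younger embryos in KO1 and KO2 alike. Of 10 tested, 4 were lower in both KO libraries and none was higher in either, with medians of -0.74 and -1.01, whereas the median in E8.5 WT was 2.07. The mean of both KO medians was -0.87, and it ran from -0.57 (no filter beyond 1 count) to -1.84 (E8.5 WT left out) over the alternatives tried. Gata1, the master factor of red cells, had 205 reads in E7.5 WT, 5 in KO1, 12 in KO2 and 65 in E8.5 WT (-4.48 and -3.90, adjusted p = 0.0013). Gfi1b counted 66, 5, 6 and 31 reads across these libraries, and Alas2, the first enzyme of heme synthesis in red cells, 133, 5, 43 and 67 reads. For these 3 genes both KO libraries lay below both wild-type libraries. The embryonic globins had hardly begun at E7.5. Hbb-bh1 had 23, 3, 3 and 1579 reads and Hba-x 0, 1, 0 and 1221 reads, so the globin wave seen in E8.5 WT was at 0 to 3 reads in KO1 and KO2. Hba-x passed the read filter through E8.5 WT alone, so it leaves the list when that library is left out. In bulk RNA, fewer cells of a type and less RNA per cell cannot be told apart. How much yolk sac each library contained is not recorded, and its part in these values was not tested.

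**Figure D2:**
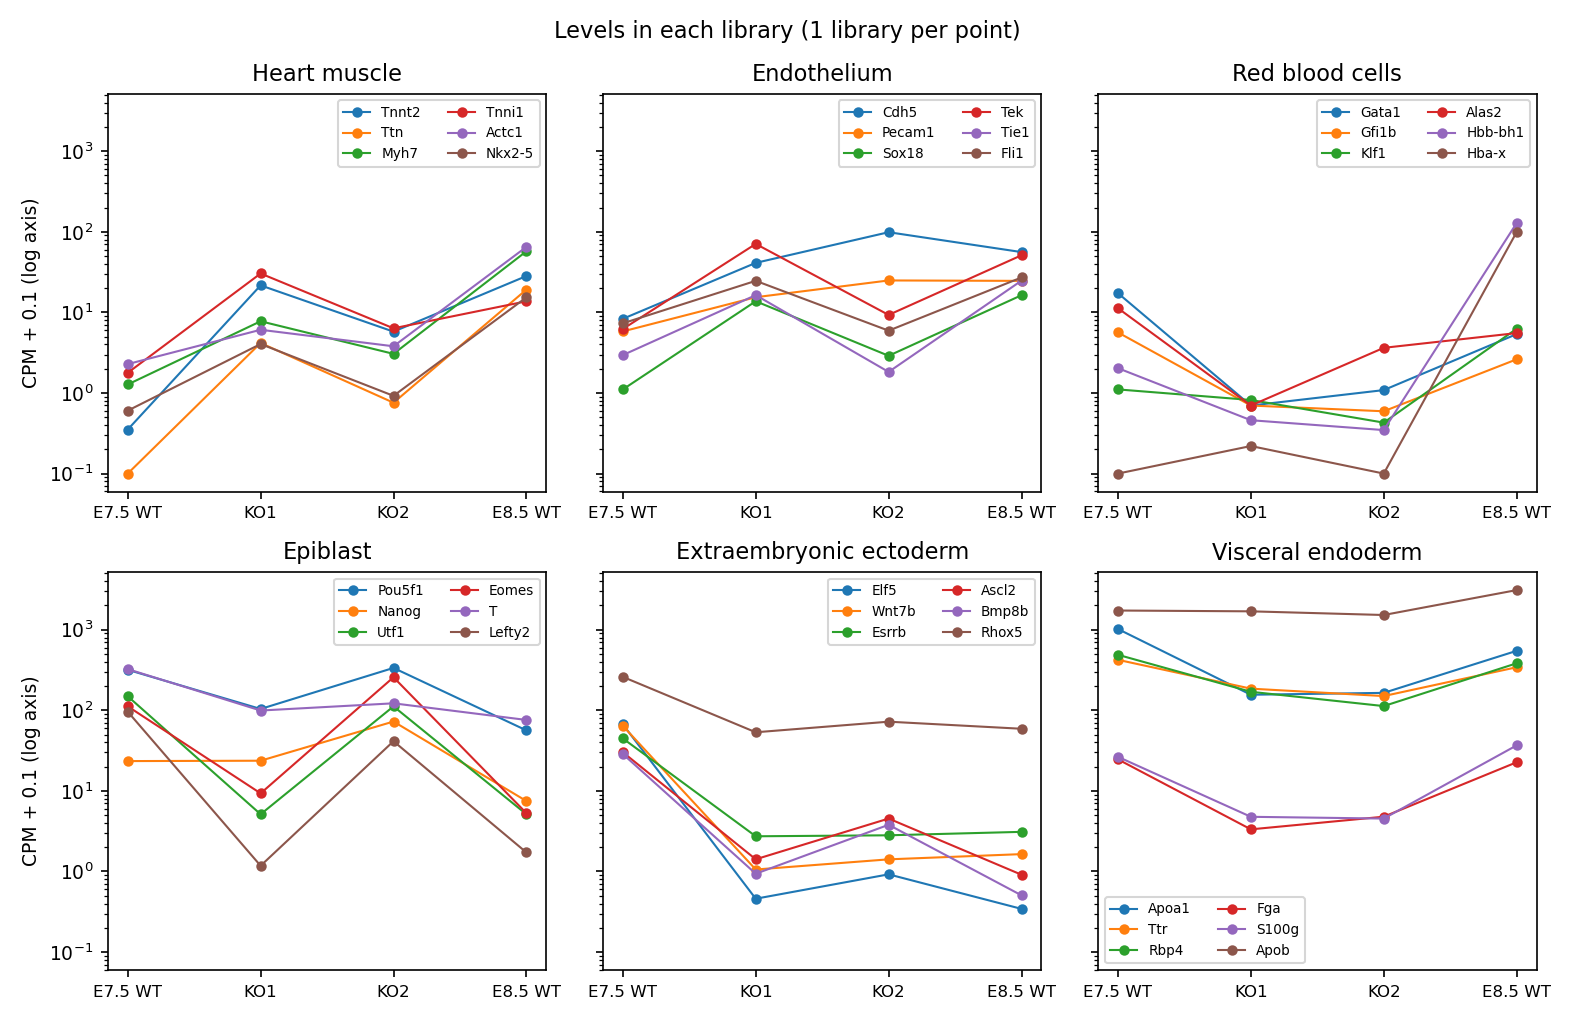
CPM + 0.1 (log axis) of 6 genes in each of 6 groups in E7.5 WT, KO1, KO2 and E8.5 WT, with 1 library per point and lines joining the values of a gene. Heart and vessel genes stand above E7.5 WT in KO1. Extraembryonic ectoderm genes and most red cell and visceral endoderm genes stand below it in both KO libraries. Hba-x is near the floor in E7.5 WT, KO1 and KO2, and Apob is level on this scale. The epiblast genes shown, other than T, separate KO1 from KO2. T and Lefty2 stand below E7.5 WT in both KO libraries, Lefty2 much further in KO1.

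Many extraembryonic ectoderm genes were lower in both KO libraries. Of 14, 8 were lower in both, none was higher in both and 3 were higher in KO2, with medians of -2.28 and -1.63 (-2.79 in E8.5 WT). Elf5, a trophoblast stem cell factor (chr2:103411688-103450989), had 795 reads in E7.5 WT, 3 in KO1, 10 in KO2 and 3 in E8.5 WT (-6.96 and -6.06, adjusted p = 4.0e-16). Wnt7b (chr15:85535437-85582473) had 762, 8, 16 and 19 reads (-5.82 and -5.42, adjusted p = 1.3e-14), and Esrrb, a nuclear receptor of trophoblast and naive pluripotent stem cells, 532, 22, 33 and 37 reads (-3.99 and -3.96). Each lay far below E7.5 WT in all 3 E8.5 libraries. Others lower in both included Ascl2, Bmp8b, Rhox5 and Tfap2c. Dnmt3l, the catalytically inactive partner of the DNA methyltransferases (chr10:78041947-78063622), was not in the list but had 618, 3, 14 and 5 reads (-6.60 and -5.29, adjusted p = 1.0e-10). Plac1 (323, 230, 939 and 223 reads), Rhox6 (90, 54, 376 and 9 reads) and Rhox9 (22, 2, 252 and 3 reads) were higher in KO2, the library with the trophoblast transcripts. How much extraembryonic tissue was kept at dissection is not recorded for any library, and its part was not tested.

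Visceral endoderm genes, many of them lower in both KO libraries, lay closer to E7.5 WT in E8.5 WT. Of 22 tested, 11 were lower in both and none was higher in either, with medians of -1.20 and -1.47 against -0.37 in E8.5 WT. Apoa1, an apolipoprotein of high-density lipoprotein (chr9:46228580-46230466), had 12148 reads in E7.5 WT, 1302 in KO1, 2002 in KO2 and 6739 in E8.5 WT (-2.71 and -2.63), with the smallest p of all lower genes in edgeR (1.95e-05, adjusted p = 0.120) and a DESeq2 adjusted p of 6.8e-45. Rbp4, the retinol carrier, had 5817, 1417, 1372 and 4720 reads (-1.52 and -2.11, adjusted p = 5.0e-09). Ttr, the thyroid hormone and retinol-binding protein carrier, had 5039, 1550, 1827 and 4216 reads (-1.19 and -1.49). Both KO libraries were below both wild-type libraries for these 3 secreted carriers. The fibrinogen chains Fga, Fgb and Fgg were lower in both, with Fga at 292, 27, 57 and 278 reads, as was S100g, an intracellular calcium-binding protein, at 314, 39, 54 and 451 reads. The endocytic receptors and lineage factors of the same cells differed less: Cubn had 28998, 13997, 19354 and 26884 reads (-0.54 and -0.61), Lrp2 4990, 5352, 6087 and 9226 reads (0.61 and 0.26), and Hnf4a 2182, 1029, 1536 and 1578 reads (-0.57 and -0.54). Apob was level with E7.5 WT (-0.03 and -0.18). Cubn and Apob have long transcripts (11262 and 13934 bases), and the change moved with length, as described below. Centred on genes of like length and GC content, Cubn stood at -1.20 and -1.14 and Apob at -0.78 and -0.86. Ttr then stood at -0.92 and -1.36, Apoa1 at -2.29 and -2.29, Lrp2 at 0.18 and -0.14 and Hnf4a at -0.55 and -0.52. On that scale Cubn was lower in both KO libraries, and Apob was not level. How much visceral yolk sac each library contained is not recorded, and its part was not tested.

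Pluripotency and primitive streak genes split the KO libraries. Pou5f1, the core factor of pluripotent cells, had 3790 reads in E7.5 WT, 867 in KO1, 4085 in KO2 and 693 in E8.5 WT (-1.61 and 0.08). Nanog had 278, 197, 882 and 91 reads (0.02 and 1.63), and Fgf5, a marker of primed epiblast, 184, 63, 994 and 32 reads (-1.02 and 2.39). KO2 thus stood at or above E7.5 WT for each of them, and KO1 lay at E7.5 WT or between it and E8.5 WT. Over 15 epiblast genes, 10 were lower in KO1 and 3 in KO2, with medians of -1.41 and 0.61. Only Dppa4 (129, 2, 1 and 10 reads), Esrrb and Zfp42 (145, 6, 38 and 12 reads) were lower in both. Dppa2 and Nr0b1, which with Dppa4 and Esrrb mark naive pluripotent cells and the germ line, were also among the deepest shared losses, with 59, 3, 4 and 7 reads and 153, 8, 12 and 3 reads. All of these were below E7.5 WT in E8.5 WT as well. Esrrb is also counted with the extraembryonic ectoderm genes above, and which cells gave these reads was not tested.

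The streak genes Eomes and Mesp1, T-box and helix-loop-helix factors of nascent mesoderm, followed the same split. Eomes had 1333, 77, 3128 and 64 reads (-3.58 and 1.20), and Mesp1 570, 52, 741 and 52 reads (-2.91 and 0.35). KO1 was near E8.5 WT and KO2 near or above E7.5 WT. T (Brachyury), the T-box factor of the streak and notochord, did not split: it had 3864, 829, 1485 and 934 reads and was lower in both (-1.71 and -1.41, adjusted p = 2.8e-07), the only member of 13 that was. Gsc and Lhx1, organiser genes, were high in KO2 alone, at 4, 7, 97 and 19 reads and 296, 150, 1156 and 202 reads.

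In the Nodal pathway the ligand Nodal had 50, 37, 155 and 23 reads (0.07 and 1.56), and its coreceptor Tdgf1 300, 6, 1480 and 31 reads (-4.82 and 2.26). The second EGF-CFC coreceptor, Cfc1, was higher in both at 151, 383, 486 and 159 reads (1.84 and 1.64, adjusted p = 0.011). The feedback inhibitor Lefty1 had 1, 2, 26 and 14 reads (0.67 and 3.14) and was higher in KO2 alone. Lefty2, of the same kind, was lower in both at 1144, 9, 502 and 20 reads (-6.26 and -1.22), as was the convertase Pcsk6 (-1.90 and -1.11). Nodal and Tdgf1 were therefore past the threshold on the higher side in KO2 alone. The receptors and Smads tested (Acvr1b, Acvr2a, Acvr2b, Smad2 and Smad3) all lay within the threshold.

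Hox genes also set the KO libraries apart. Of 33 Hox genes tested, 17 were higher and 4 lower in KO1, against 13.3% and 7.34% of all genes. In KO2 none was higher and 12 were lower, against 10.9% and 4.02%. None was past the threshold on the same side in both. The medians were 1.14, -0.68 and 2.54 in KO1, KO2 and E8.5 WT. Hoxb3 had 35 reads in E7.5 WT, 154 in KO1, 20 in KO2 and 289 in E8.5 WT. Hoxb1, a hindbrain gene, had 493, 552, 60 and 567 reads, and Hoxb9, a trunk gene, 11, 67, 4 and 451. KO1 was past the threshold at every tested gene from Hoxa2 to Hoxa5 and from Hoxb2 to Hoxb6, and KO2 at none of them on the higher side. Some central genes present in E8.5 WT were near 0 in both, such as Hoxa7 (4, 3, 3 and 71 reads), Hoxa9 (7, 6, 5 and 113) and Hoxc9 (1, 0, 1 and 32). The posterior Hoxa10 and Hoxa11 were lower in KO1 (93, 22, 82 and 160 reads and 66, 9, 51 and 72 reads).

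**Figure D3:**
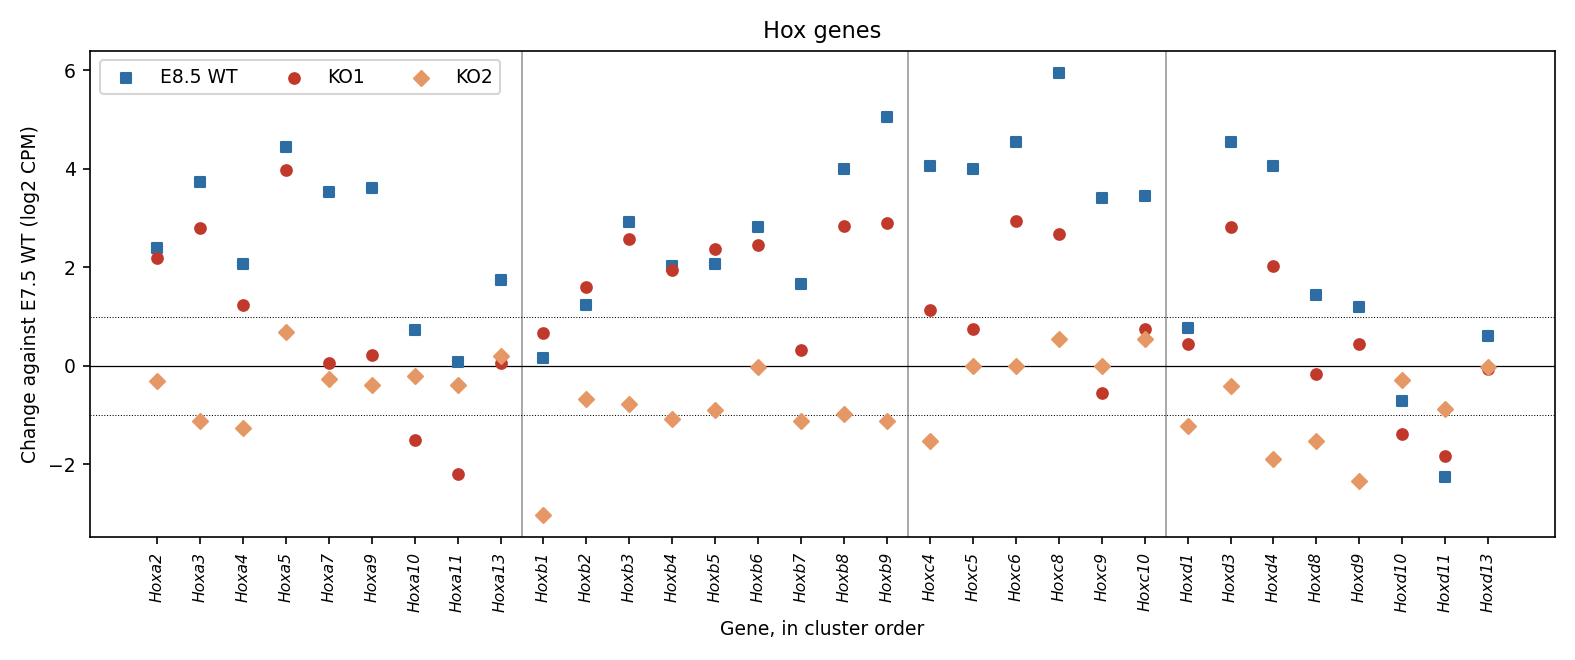
Change against E7.5 WT (log2 CPM) of 32 of the 33 Hox genes tested, in cluster order, in KO1 (circles), KO2 (diamonds) and E8.5 WT (squares), with dotted lines at the threshold. Of those shown, KO1 was higher at 16 and KO2 at none.

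Axis and mesoderm genes repeated that contrast. Cdx1 and Cdx2, which act upstream of trunk Hox genes, had 118, 806, 22 and 1391 reads (3.26 and -2.34) and 990, 653, 150 and 1326 reads (-0.09 and -2.74). Among 15 presomitic and somite genes, 3 were higher and 3 lower in KO1, against 13.3% and 7.34% of all genes. In KO2 none was higher and 5 were lower, against 10.9% and 4.02%, and none was shared. The medians were -0.06 and -0.65 (0.63 in E8.5 WT). Those lower in KO1 were Dll3 (-1.20), Mesp2 (-2.12) and Uncx (-1.51). Meox1, a somite factor, had 3, 235, 6 and 390 reads, Msgn1 of the presomitic mesoderm 38, 99, 3 and 127, and Tbx6 351, 215, 91 and 218. Meox1 and Msgn1 were thus higher in KO1, and neither was higher in KO2. Of 13 lateral plate genes, 8 were higher in KO1 and 2 in KO2, against 13.3% and 10.9% of all genes. Their medians were 1.35 and 0.02. Alcam (54, 311, 175 and 323 reads) and Vcam1 (4, 176, 76 and 89 reads, 5.37 and 3.64, adjusted p = 7.3e-04), both cell adhesion molecules, were the shared pair. Tbx4, an allantois and hindlimb factor, had 20, 56, 5 and 799 reads. The retinoic acid-making enzyme Aldh1a2 had 80, 1385, 78 and 1723 reads, at 4.59 in KO1 and -0.07 in KO2. The receptor Rarb was higher in both at 21, 246, 92 and 296 reads (3.93 and 1.99). It was the only 1 of 13 retinoic acid genes that was, against 7.02% of all genes.

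Genes of the anterior neural plate were higher in both libraries in part. Of 12 anterior neural plate and forebrain genes, 5 were higher in both and none lower in both, with medians of 1.52 and 1.06 (2.34 in E8.5 WT). Sox1, the early neuroectoderm factor, had 13 reads in E7.5 WT, 178 in KO1, 42 in KO2 and 533 in E8.5 WT (4.08 and 1.52, adjusted p = 0.011). Six3, of the rostral forebrain, had 108, 257, 285 and 489 reads, and Hesx1 26, 57, 73 and 170. The KO libraries lay between the younger and the stage-matched wild type for these genes. Pax6 (10, 31, 14 and 180 reads) was past the threshold in KO1 alone and Otx2 (828, 510, 2059 and 703 reads) in KO2 alone. The midbrain and hindbrain list stayed at the level of E7.5 WT (medians of -0.00 and -0.03, 1.98 in E8.5 WT): En1 was higher in both, Wnt1 had 0, 35, 0 and 71 reads and Pax2 17, 77, 17 and 352 reads, present in KO1 and not above E7.5 WT in KO2, and Gbx2 was lower in KO2 (230, 273, 47 and 515 reads).

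Neural crest and plate border genes were higher in 6 of 12 in both libraries (medians 1.38 and 1.22, 1.30 in E8.5 WT). Snai2, a factor of crest migration, had 35, 311, 147 and 260 reads (3.59 and 1.98, adjusted p = 0.0040), and Tfap2a 157, 389, 521 and 451 reads (1.81 and 1.69, adjusted p = 0.0039). Foxd3 had 34, 56, 139 and 102 reads. These genes reached the level of E8.5 WT in at least 1 KO library. Of 22 neuronal differentiation genes, 8 were higher in both and 1, Neurog1 (31, 1, 4 and 1 reads), was lower in both, with medians of 0.93 and 0.93 against 0.46 in E8.5 WT. Stmn2, a microtubule regulator of growing axons, had 140, 361, 534 and 288 reads (1.86 and 1.88, adjusted p = 0.0031). Stmn3 had 28, 61, 71 and 36 reads, Dcx, of migrating neurons, 10, 20, 91 and 7, and Nefl (neurofilament) 25, 60, 170 and 76. Stmn2, Stmn3 and Dcx were above both wild-type libraries in KO1 and KO2, and most of the remaining genes had under 100 reads in every library.

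Secreted BMP antagonists were higher in both libraries more often than lower. Of 16, 7 were higher in both and none was lower in both, with medians of 1.29 and 1.11 (0.34 in E8.5 WT). Bmper had 89, 199, 358 and 98 reads (1.65 and 1.95, adjusted p = 0.049), Nog (noggin) 50, 119, 112 and 97 (1.72 and 1.10), and Twsg1 753, 1230, 1754 and 1467 (1.22 and 1.19, adjusted p = 7.9e-04). These 3 were higher by similar amounts in KO1 and KO2, whereas Chrdl2 (6, 1, 304 and 0 reads) was high in KO2 alone. Cer1 (835, 202, 2021 and 135 reads) and Chrd (345, 151, 541 and 77 reads), also Nodal and organiser genes, were below E7.5 WT in KO1 and above it in KO2. Transcripts that report BMP signalling stayed near E7.5 WT as a list. Over 14 genes the medians were 0.13 and 0.07, and Id4 alone was higher in both, while Id1 had 1075, 848, 1268 and 1054 reads (0.17 and 0.21). Id2 (-0.51 and -1.57), Dlx3 (0.04 and -1.62) and Atoh8 (-0.60 and -1.89) were lower in KO2 only.

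**Figure D4:**
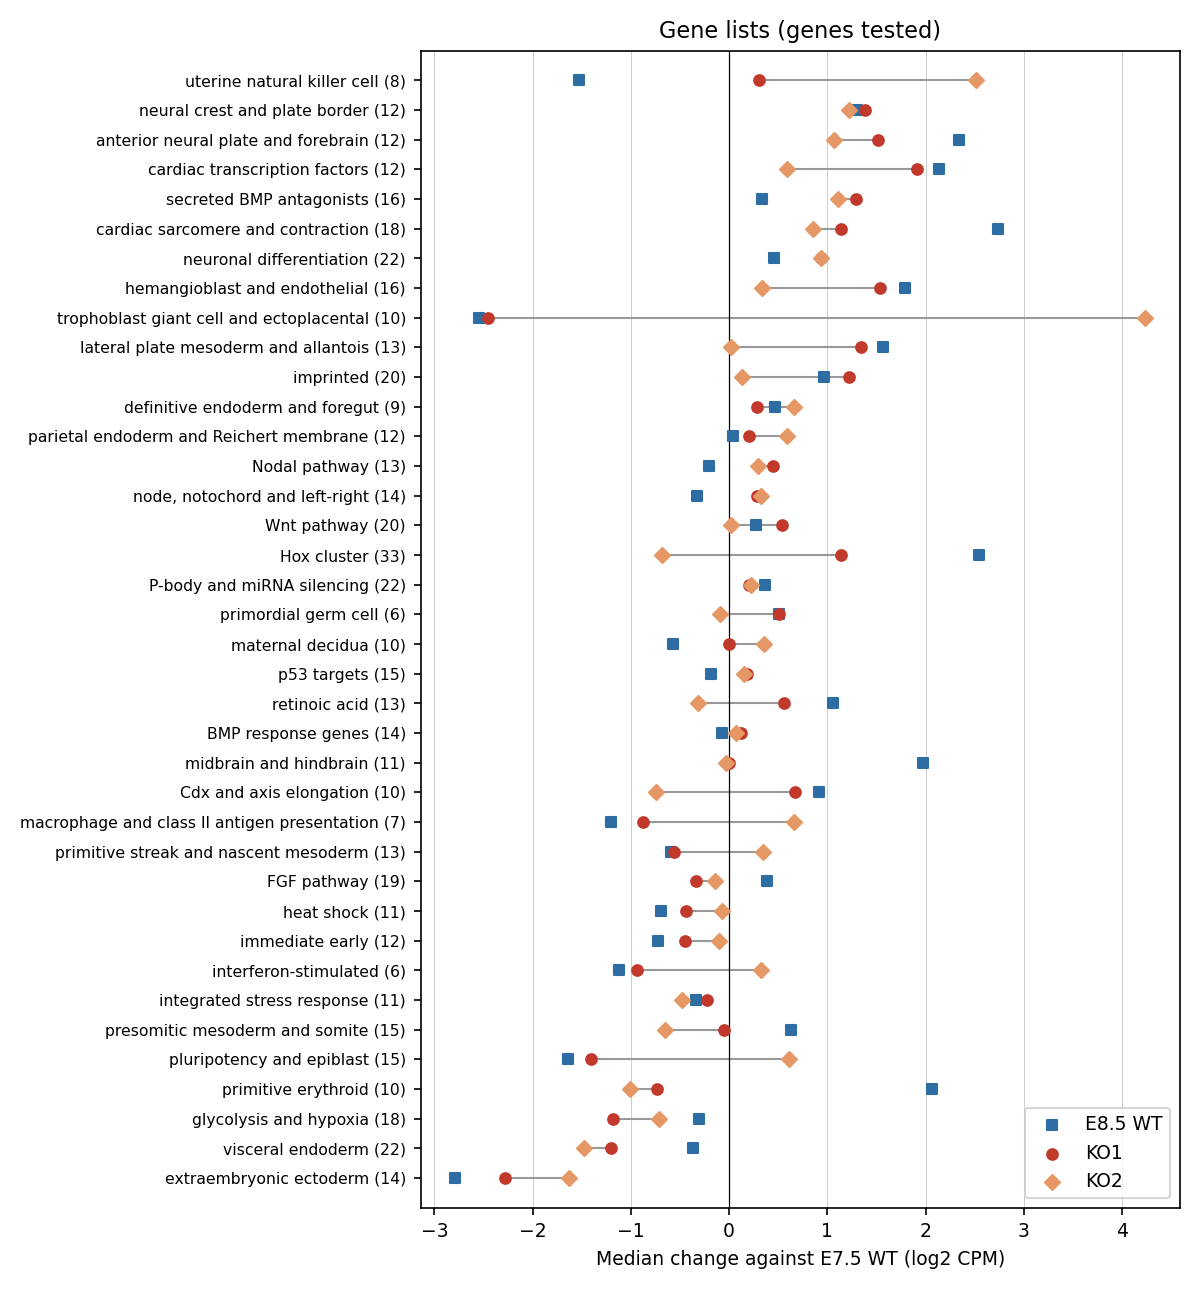
Median change against E7.5 WT (log2 CPM) of 38 gene lists in KO1 (circles), KO2 (diamonds) and E8.5 WT (squares), with the number of genes tested in brackets and grey bars joining the KO values. The neural crest, forebrain, BMP antagonist and sarcomere lists lay above 0 in both KO libraries, the extraembryonic ectoderm, visceral endoderm, glycolysis and erythroid lists below 0 in both, and the trophoblast, pluripotency and Hox lists on opposite sides.

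Glycolysis genes were lower, more of them in KO1. Of 18 genes of glycolysis and the hypoxia response, 13 were lower in KO1, 6 in KO2 and 6 in both, with medians of -1.19 and -0.72 against -0.31 in E8.5 WT. Aldoa (aldolase) had 32381 reads in E7.5 WT, 7873 in KO1, 16136 in KO2 and 19242 in E8.5 WT (-1.53 and -1.04, adjusted p = 4.4e-07). Hk2 (hexokinase) had 4229, 1116, 2027 and 3619 reads (-1.41 and -1.09), and Pdk1, a kinase that restrains pyruvate dehydrogenase, 1056, 195, 409 and 1006 (-1.92 and -1.39). KO1 was the lowest library for all 3. The glucose transporters Slc2a1 (0.74 and -0.07) and Slc2a3 (0.22 and -0.49) did not pass the threshold, and Adm, a secreted peptide that giant cells also make, had 111, 5, 1546 and 14 reads.

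Imprinted genes were higher in 6 of 20 in both libraries, against 7.02% of all genes, with medians of 1.22 and 0.13 (0.97 in E8.5 WT). Cdkn1c, a growth-restraining inhibitor of cyclin-dependent kinases, had 1253, 2228, 3124 and 2664 reads (1.34 and 1.29, adjusted p = 2.2e-06), and Grb10, an adaptor that dampens insulin signalling, 6498, 11424, 14742 and 15804 (1.33 and 1.15, adjusted p = 2.5e-09). Plagl1 had 33, 437, 50 and 603 reads and was high in KO1 alone. Cdkn1c and Grb10 differed from E7.5 WT by similar amounts in all 3 E8.5 libraries, and H19, the most abundant of the list, had 69631, 38171, 38268 and 52381 reads (-0.35 and -0.89).

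Genes at the top of the ranking outside these groups were of mixed function. Ulbp1, a ligand of the NKG2D receptor of natural killer cells (chr10:7440362-7473638), was among the 12 leading shared gains with 5 reads in E7.5 WT, 77 in KO1, 146 in KO2 and 31 in E8.5 WT (3.97 and 4.35, adjusted p = 0.0031). Emp1, an epithelial membrane protein, had 21, 263, 258 and 144 reads (4.03 and 3.46, adjusted p = 6.3e-06), and Sez6, a neuronal membrane protein, 16, 118, 239 and 92 (3.23 and 3.70, adjusted p = 8.8e-04). For all 3, both KO libraries were above E8.5 WT as well. Kcnab1, a potassium channel subunit, had 3, 99, 70 and 59 reads, and Mme (neprilysin, a membrane peptidase) 12, 284, 183 and 470. Ano4 and 5730507C01Rik completed the 12 leading shared gains with 3, 63, 39 and 41 reads and 6, 46, 89 and 38 reads. Among the 12 leading losses, Sohlh2, a germ line transcription factor, had 109, 0, 1 and 0 reads, Duox2 57, 0, 2 and 1, Gtsf1l 61, 0, 3 and 3, and the long noncoding RNA Lincenc1 93, 3, 8 and 49. The KO values of these 4 genes are at or near the limit of detection, since a floor of 3 reads corresponds to 0.359 CPM in KO1 and 0.246 CPM in KO2.

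The edgeR ranking favours agreement of the KO pair. Among the higher genes it gave Cald1, an actin-binding protein (896, 1913, 2847 and 2233 reads, 1.60 and 1.63), Capn6, a calpain-like cytoskeletal protein (203, 884, 1085 and 876), and Tnks, tankyrase (553, 1530, 1976 and 2296). Next came Tnpo1, Trove2, Chst15, Cdkn1c, Pcdh7, Sema3e and Dzip3, with changes from 1.29 (Cdkn1c) to 2.84 (Sema3e). Chst15, a sulfotransferase, had 164, 528, 699 and 319 reads, so both KO libraries lay above E8.5 WT. Tnpo1 and Trove2 differed from E7.5 WT by about the same amount in E8.5 WT (1.62 and 1.79) as in the KO libraries (1.42 and 1.40, and 1.70 and 1.63). Centred on genes of like length and GC content, as described below, Tnpo1 stood at 0.68 and 0.72 and Trove2 at 0.95 and 0.95. Both were then within the threshold, whereas the remaining higher genes named here stayed past it in both KO libraries. On the lower side Apoa1, Wnt7b, Apom, Elf5, Esrrb and Ddx6 were followed by Morc4 (-1.37 and -1.46), Pdzk1 (-1.57 and -1.63) and Ddah1 (-1.66 and -1.87). All of these had an edgeR adjusted p of 0.120.

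The change against E7.5 WT also moved with the length of the transcript, in every E8.5 library. Genes were matched to GENCODE M21 (14322 of 14393, 99.5%), and the longest annotated transcript was taken for each. Genes were split into 4 bins of equal size. In the bin with the shortest transcripts (up to 2209 bases) the median change was -0.32 in KO1, -0.21 in KO2 and -0.33 in E8.5 WT, and in the bin with the longest (4836 bases or more) it was 0.45, 0.39 and 0.44. Genes higher in both KO libraries made up 3.04% of the shortest bin and 13.2% of the longest, and genes lower in both 5.47% and 0.838%. GC content moved the other way, from medians of 0.31 and 0.33 in the lowest bin to -0.20 and -0.12 in the highest. E8.5 WT showed the same trend, so the trend sets E7.5 WT apart from all the other libraries, and stage and library preparation cannot be told apart here. With each gene centred on genes of like length and GC content, an alternative chosen after seeing the data, 744 genes were higher in both and 328 lower in both. Some genes named here as shared were then within the threshold in at least 1 KO library. Besides those given in their own paragraphs, these included Aldoa, Grb10, Id4, Fgf10, Etv4 and Pyy.

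**Figure D5:**
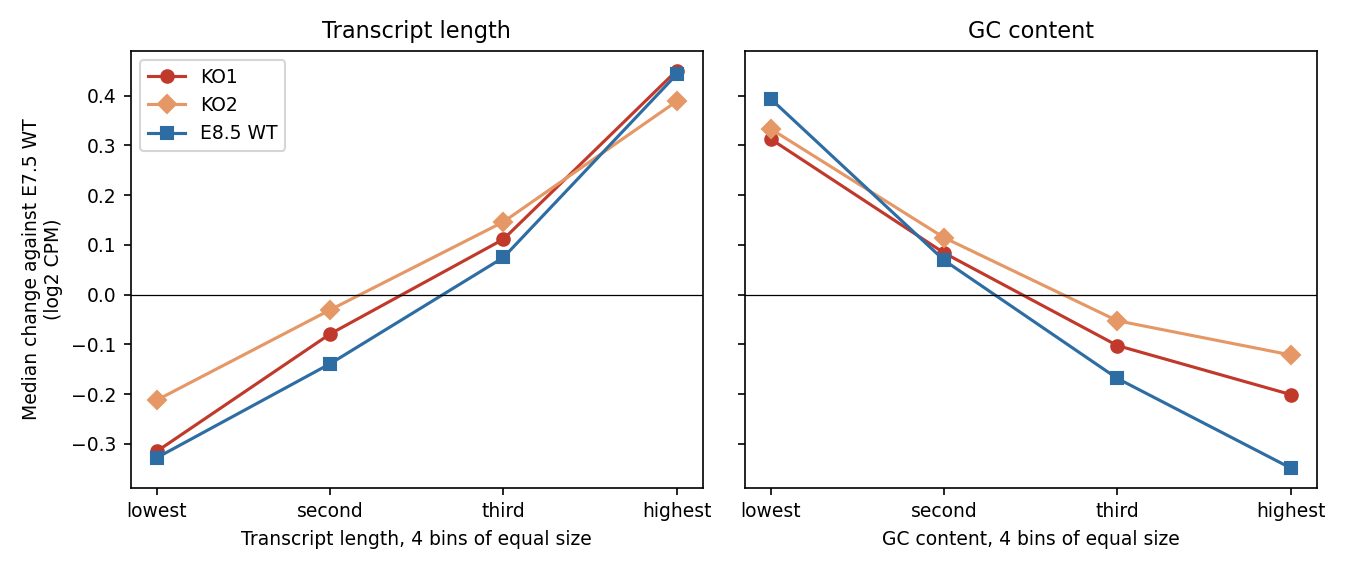
Median change against E7.5 WT (log2 CPM) of genes in 4 equal bins of transcript length (left) and GC content (right), from the lowest to the highest bin, in KO1, KO2 and E8.5 WT. All 3 lines climb with length, from -0.32, -0.21 and -0.33 to 0.45, 0.39 and 0.44, and decline with GC content.

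Long transcripts fill the P-body and miRNA silencing list, whose median transcript length was 5642 bases. Of 22 genes tested, 2 were higher in both KO libraries and none lower, against 7.02% and 2.67% of all genes. The list's medians were 0.21 and 0.22 (0.36 in E8.5 WT). Xrn1, the exonuclease that degrades decapped mRNA, had 129, 317, 417 and 476 reads (1.79 and 1.65, adjusted p = 0.0091), and Ago3, an Argonaute that carries miRNA, 32, 76, 103 and 127 (1.70 and 1.59). The decapping enzyme Dcp2 had 1423, 1903, 2777 and 3228 reads (0.93 and 0.93). E8.5 WT differed from E7.5 WT by as much (1.82, 1.87 and 1.13). The partners of DDX6 in the same complexes lay close to E7.5 WT, with Eif4enif1 (4E-T) at 0.02 and 0.09, Lsm14a at 0.24 and 0.26, Edc3 at -0.21 and -0.15, Patl1 at 0.18 and 0.01 and Cnot1 at 0.32 and 0.34. After centring on genes of like length and GC content the list's medians were 0.02 and -0.04, and no member was past the threshold in both.

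Genes with sites for miRNAs were described because DDX6 acts in miRNA silencing. A site was taken as a match in an annotated 3′ UTR to the reverse complement of bases 2 to 8 of the miRNA, the seed, in the longest 3′ UTR of each of 13829 genes. The families are abundant in the early embryo or, as let-7 and miR-9, accumulate with differentiation, and 1 member of each is shown with the seed in capitals (RefSeq, GRCm38.p6) because only these letters decide which genes are counted.
miR-291a-3p: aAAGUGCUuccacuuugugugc
miR-17-5p: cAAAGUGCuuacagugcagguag
let-7a-5p: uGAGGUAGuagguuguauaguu
miR-92a-3p: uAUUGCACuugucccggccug
miR-9-5p: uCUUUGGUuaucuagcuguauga

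The miR-291a-3p seed is shared by miR-294-3p, miR-295-3p, miR-302b-3p and miR-302d-3p, and its site AGCACTT overlaps the site GCACTTT of the miR-17 family by 6 letters. The 2402 genes with a site for the miR-290 and miR-302 family had median changes of 0.24 in KO1, 0.25 in KO2 and 0.23 in E8.5 WT, and the 11427 genes without had -0.00, 0.04 and -0.06. Genes with a site were thus slightly higher in all 3 E8.5 libraries, but their 3′ UTRs were also longer, with a median of 2539 bases against 988. Among genes in the longest of 4 bins of 3′ UTR length, the medians were 0.42 and 0.41 in KO1 and KO2 with a site and 0.41 and 0.36 without. In the bin below they were 0.16 and 0.20 with a site and 0.14 and 0.15 without. For the miR-17 family the longest bin gave 0.50 and 0.46 with a site against 0.38 and 0.35 without, and E8.5 WT gave 0.46 against 0.39. For let-7 it gave 0.40 and 0.35 with a site and 0.42 and 0.39 without. Over all genes the miR-92 sites (1041 genes) had medians of 0.35 and 0.32 (0.32 in E8.5 WT), against 0.01 and 0.06 (-0.04) without a site. In the longest bin these were 0.53 and 0.43 (0.50) with and 0.39 and 0.37 (0.40) without, and in the bin below 0.29 and 0.32 (0.28) against 0.13 and 0.15 (0.09). The miR-9 sites (1964 genes) had medians of 0.27 and 0.25 (0.22), against 0.00 and 0.05 (-0.05) without. In the longest bin they had 0.48 and 0.42 (0.46) against 0.39 and 0.36 (0.40), and in the bin below 0.13 and 0.17 (0.06) against 0.15 and 0.16 (0.12).

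Other signalling and lineage lists had few shared genes, beside shares of 7.02% higher and 2.67% lower in both over all genes. Wnt pathway genes had medians of 0.53 and 0.02 with none of 20 past the threshold in both, and in KO2 Wnt3a, Wnt6, Notum and Nkd1 were lower while Wnt3, Dkk1, Frzb and Sfrp1 were higher. FGF genes had medians of -0.34 and -0.14, with Fgf10 higher and the ETS target Etv4 lower in both (664, 229, 306 and 562 reads). Among 14 node and left-right genes Shh (10, 162, 28 and 200 reads) and Nog were higher in both, and the ciliary factor Foxj1 had 661, 233, 568 and 67 reads. Of 9 definitive endoderm genes, 2 were higher in KO1 and 4 in KO2, none was higher in both and Pyy was lower in both, with medians of 0.28 and 0.66. Trh, a member, had 1003, 857, 2865 and 240 reads. Parietal endoderm genes had medians of 0.21 and 0.59. Of 6 germ cell genes, Kit (278, 772, 850 and 920 reads) and Ifitm3 (97, 285, 289 and 143 reads) were higher in both and Prdm14 (10, 2, 3 and 3 reads) lower.

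The integrated stress response list had medians of -0.23 and -0.48 and no gene past the threshold in both. Heat shock genes had -0.43 and -0.07 (-0.69 in E8.5 WT), immediate early genes -0.44 and -0.10, and p53 targets 0.19 and 0.15, with Trp53inp1 (188, 402, 690 and 373 reads) and Eda2r higher in both. Cdkn1a, the cell cycle inhibitor downstream of p53, had 269, 123, 185 and 126 reads. Interferon genes had -0.94 and 0.32, macrophage and class II genes -0.87 and 0.66, uterine natural killer genes 0.31 and 2.51, decidua genes -0.00 and 0.36, and trophoblast genes -2.46 and 4.24.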

How the data were processed

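RNA of whole ICR mouse embryos was sequenced as 4 stranded mRNA libraries. The deposited file holds raw counts per gene, which the authors made with the tools that the submitters' processing notes name: cutadapt 2.8, FastQC 0.11.7, HISAT2 2.1.0, SAMtools 1.9 and featureCounts 2.0.0, on mm10. Reads were counted by strand (reverse setting) over each gene's exons, and no option for reads shared between genes is named in the sources used here. The table lists 24421 genes, and 0 value columns were left unused.

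A gene was kept when 1 library or more held at least 10 counts (14393 genes). Log2 CPM used TMM factors and a prior count of 2 (edgeR 4.0.16, R 4.3.3), and genes were set past the threshold at a log2 difference of 1, as in the study's methods. Counting error was taken from exact (Clopper-Pearson) 95% intervals of the reads, which cover counting error only: both intervals excluded 0 for 900 of the 1011 shared higher and 347 of the 384 shared lower genes. The test was edgeR's quasi-likelihood F-test over the 3 groups with Benjamini-Hochberg adjustment, leaving 1 residual degree of freedom. DESeq2 1.42.0 gave the alternative, with no adjusted p for 3070 genes. Both tests, and the threshold, were run on simulated counts with large changes and the same spread in every library. The real libraries also differ in sex and adjoining tissue, so the simulation cannot show how the calls fare here. E7.5 WT, a lone library, was assumed to vary like the KO pair.

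Named genes were Ddx6, list members, the 12 highest and 12 lowest shared genes (at least 50 reads in a library), the 8 highest and 8 lowest genes past the threshold in 1 KO library, and the 10 smallest edgeR p-values in each direction. The lists and members were chosen with earlier results of these data known. Some genes that meet this rule are not reported here by name, though they count in all totals. Of the families planned, miR-124 and miR-1 were not analysed here. Transcript lengths, 3′ UTRs and positions came from GENCODE M21 (mm10), where 420 genes were matched by an older symbol. Alternatives were another normalisation, other filters, prior count, threshold and tool, leaving out E8.5 WT or a KO library, and centring by length and GC content.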

Additional observations from a re-analysis of the deposited data

How the results depend on the processing

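Ddx6 stayed past the threshold of 1 under every alternative that kept that threshold. It did not reach the threshold of 2 (changes of -1.55 in KO1 and -1.69 in KO2). The gene counts moved by under 1.5 times with normalisation, prior count, the looser filter, leaving out E8.5 WT or centring. Requiring at least 50 counts gave 647 lower genes in KO1, 351 in KO2 and 234 in both, since fewer genes were tested. A threshold of 2 left 533 higher and 256 lower in KO1, 313 and 102 in KO2, and 132 and 59 in both. Without a KO library the higher genes numbered 1573 to 1919 and the lower 578 to 1057. The edgeR test called 0 genes, but 463 higher and 265 lower without the filter, and DESeq2 called 420 higher and 308 lower; the cause was not tested. The other values give the mean of the KO1 and KO2 list medians, which moved where KO1 and KO2 lay close together. The erythroid list had -0.57 with no filter, -1.78 at 50 counts, -1.28 at a prior count of 0.5, -1.84 without E8.5 WT, -1.09 with low genes at their bound and -0.65 when centred by length and GC content. The midbrain and hindbrain list had -0.034 (DESeq2 size factors), 0.019 (library totals), 0.33 (50 counts), 0.093 (without E8.5 WT), 0.24 (bound) and 0.075 (centred), so its sign was not settled. The neuronal list had 0.90 (size factors), 0.98 (totals), 0.89 (no filter), 1.13 (50 counts), 0.94 (prior count), 0.97 (without E8.5 WT), 0.95 (bound) and 0.73 (centred). The node list had 0.27 (size factors), 0.35 (totals), 0.49 (50 counts), 0.25 (without E8.5 WT) and 0.059 (centred). The P-body list had 0.18 (size factors), 0.26 (totals), 0.23 (50 counts), 0.16 (without E8.5 WT) and -0.012 (centred), so its sign was not settled either. The p53 list had 0.13 (size factors), 0.21 (totals), 0.24 (no filter), 0.11 (without E8.5 WT) and 0.37 (centred). The BMP response list had 0.14 (totals), 0.039 (without E8.5 WT) and 0.36 (centred). At 50 counts the sarcomere list had 1.48, the BMP antagonist list 0.94 and the definitive endoderm list 0.76, and the last had 0.76 when centred. The neural crest list had 1.11 at its bound. Centred, the stress response list had -0.16, visceral endoderm -1.12 and Ddx6 -2.19. No paired analysis was possible because the groups compared share fewer than 2 replicate numbers.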

Other observations

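Genes past the threshold in 1 KO library and not on the same side in the other were led by sex-linked and trophoblast genes and, among the rest, by genes of the axis. Hes3, a repressor of the Hes family in the neural tube, had 1 read in E7.5 WT, 79 in KO1, 0 in KO2 and 306 in E8.5 WT. Slc38a8, an amino acid transporter, had 7, 66, 1 and 59 reads. Both were at or near 0 in KO2 and E7.5 WT. On the KO2 side Psg22 and Psg29, pregnancy-specific glycoproteins of trophoblast, had 28, 0, 493 and 3 reads and 87, 4, 1700 and 3 reads, and Prl5a1 12, 0, 272 and 2 reads.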
